A study of Mus musculus with 2 samples.

Results

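The genes described here are 8 members of the complement system, C1qa, C1qb, C1qc, C3, Cfb, Cfp, C5ar1 and C3ar1. They were chosen by gene symbol, and all 8 were found among the 28523 genes that the authors listed for the cells of liver metastases. The metastases grew from the mouse line 4T1, a model of triple-negative breast cancer, injected into the spleen of female BALB/c mice aged 6-8 weeks and dissected on day 14. In one group the injected cells carried a hairpin against Zdhhc17 (shZdhhc17), and in the other a non-targeting scrambled hairpin (shSCR). The hairpins were delivered to the cultured line by lentivirus with puromycin selection, so the silencing concerned the injected cancer cells and not the cells of the host. Each group was a single library, made from the pooled cells of several mice, with 21511 cells and 172527305 UMIs (counted molecules) in shZdhhc17 and 22860 cells and 214842365 UMIs in shSCR.

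The values used here for the 8 genes are flags per gene over both libraries together, and a list of the leading markers of each neutrophil cluster. Levels of these genes by cell type, neutrophil cluster or library were not analysed here. These entries therefore do not show which cells expressed the genes, or whether levels differed between shZdhhc17 and shSCR metastases. For the same reason the annotated cell types could not be checked against their defining markers.

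Complement is a cascade of plasma proteins that coats targets for uptake, attracts leukocytes and can perforate membranes. The classical pathway starts when C1q binds an antibody or a surface, the lectin pathway when a lectin or ficolin binds sugars, and the alternative pathway when C3 turns over and factor B binds it. All of them meet at the cleavage of C3 and then C5, which releases the small anaphylatoxins C3a and C5a. Hepatocytes make most of the plasma components, while C1q is known mainly as a product of macrophages, and the anaphylatoxin receptors are best known on myeloid cells.

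The C1q genes and C3 were among the genes flagged as highly variable over all cells. The authors flagged the 1000 genes that they used for dimension reduction as highly variable, which was 3.51% of the genes listed for all cells. Of the 8 genes, 4 carried this flag, namely C1qa, C1qb, C1qc and C3. The other 4, Cfb, Cfp, C5ar1 and C3ar1, did not. The flag marks a gene whose level varies strongly from cell to cell, and does not say between which cells or libraries. It gives neither a level nor a direction.

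C1qa, C1qb and C1qc encode the A, B and C chains of C1q, the recognition subunit of the classical pathway. All 3 were flagged as variable over all cells. They lie side by side on the minus strand of chromosome 4 of GRCm38, and no other annotated gene overlaps their span of 18675 bases. C1qb (ENSMUSG00000036905.8) runs from 136880129 to 136886187, C1qc (ENSMUSG00000036896.5) from 136889804 to 136893065, and C1qa (ENSMUSG00000036887.5) from 136895917 to 136898803. The gaps between them are 3616 and 2851 bases. The 3 genes parted in the gene table of the neutrophils, where C1qb and C1qc were listed and C1qa was not found. That table listed 75.5% of the genes of the full table, and the sources used here do not say what level a gene needed to enter it. Over both libraries the neutrophils were 10922 cells with 54922339 UMIs, beside 44371 cells with 387369670 UMIs for all cells. What part this smaller depth had in the listing was not tested.

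C3 (ENSMUSG00000024164.15) encodes the central component, whose cleavage all activation routes share. It lies on the minus strand of chromosome 17, from 57203970 to 57228136. It was flagged as variable over all cells and was also listed for neutrophils, without the flag there.

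Cfb encodes factor B, the protease of the alternative pathway convertase, and Cfp encodes properdin, which stabilises that convertase. Neither was flagged as variable in either table. Cfp (ENSMUSG00000001128.7, chromosome X, 20925454 to 20931555, minus strand) was listed for all cells and for neutrophils. Cfb (ENSMUSG00000090231.10, chromosome 17, 34856374 to 34862518, minus strand) was listed for all cells and was not found in the neutrophil table. In the gene annotation used here, 79.5% of the exon bases of Cfb (2246 of 2825) are shared with Gm20547. Gm20547 is a protein-coding gene annotated on the same strand that was found in neither gene table. How the authors' counting treated reads on shared bases is not given in the sources used here, so the entries of Cfb are uncertain. Whether the overlap bears on the absence of Cfb from the neutrophil table was not tested. C2, a close relative of factor B that serves in the classical and lectin pathways, is separated from Cfb by 85 bases and was listed in both tables. Gm20547 runs on to 34882042 and so also overlaps C2, which starts at 34862604. Exon bases that it shares with C2 were not counted, so the entries of C2 may be uncertain too.

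C5ar1 and C3ar1 encode the receptors of C5a and C3a, which are coupled to G proteins and draw and activate myeloid cells. Both were listed for all cells and for neutrophils, and neither was flagged as variable in either table. C5ar1 (ENSMUSG00000049130.6) lies on the minus strand of chromosome 7, from 16246743 to 16259540. C5ar2, which encodes a second C5a receptor, lies 2588 bases away and showed the same entries. C3ar1 (ENSMUSG00000040552.8) lies on the minus strand of chromosome 6, from 122847138 to 122856161.

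**Figure D1:**
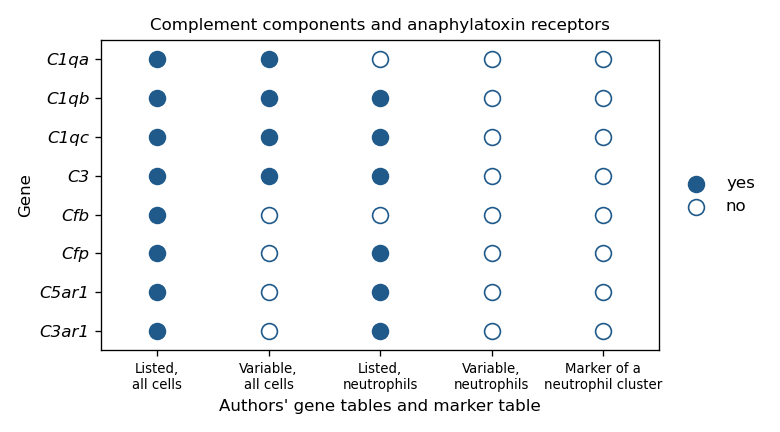
Entries of the 8 complement genes (vertical axis) in the authors' gene tables and neutrophil marker table (horizontal axis), over both libraries together. Filled circles mean yes and open circles no: the C1q genes and C3 carry the variable flag over all cells, and C1qa and Cfb are not found in the neutrophil table.

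Neutrophils are short-lived phagocytes for which C5a is a known attractant. The neutrophil gene table held 21544 genes and flagged 1000 of them, 4.64%, as variable. Of the 8 genes, 6 were listed there and 0 were flagged, which at that share says little about them. C1qa and Cfb, not found there, could be neither flagged nor ranked. The authors' deposited table of neutrophil markers gave the top 20 genes of each of 9 clusters by a marker score, 180 genes in all, or 0.835% of the genes listed for neutrophils. None of the 8 was among them, which is no result about so few genes at that share. The lowest score that still entered the authors' deposited table ranged from 0.229 for Psap in Migration 1 to 2.42 for Hspa8 in Early-Stage 1. The score is the log2 fold change against all other neutrophils times a specificity score. Each of the 180 genes was given for 1 cluster only. Since only the top 20 genes of each cluster were given, a gene outside the table may still differ between clusters. The absence of C5ar1, C3ar1 and Cfp from it does not show equal levels.

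Of 42 further complement genes, all were listed for all cells, 8 (19.0%) were flagged as variable there, and 17 (40.5%) were listed for neutrophils. For the 8 genes described above the counts were 4 (50.0%) flagged and 6 (75.0%) listed for neutrophils, beside 3.51% and 75.5% of all genes. These 8 genes were chosen with earlier results of these data known, and the flagged C1q genes lie side by side. The shares are therefore a description and no support for an excess. None of the 7 genes of the classical pathway enzymes and their substrates was flagged (C1ra, C1rb, C1s1, C1s2, C2, C4a and C4b), a count near the share of 3.51% over all genes. In the lectin pathway Fcna and Fcnb, which encode ficolins, were flagged, 2 of 7 genes. Of the 7 terminal components, C6, which takes part in the membrane attack complex, was flagged, and C7 was listed for neutrophils. Cfd, the protease that cleaves factor B, was listed for neutrophils and not flagged.

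Beside 3.51% of all genes, 3 of 13 regulators (23.1%) were flagged over all cells. They were Serping1, which encodes the C1 inhibitor, Cd55, which encodes decay-accelerating factor, and Clu, which encodes clusterin. Clu was also flagged within neutrophils, as was Cd46, a membrane cofactor gene without the flag over all cells. These were 2 of the 5 regulators listed for neutrophils, beside 4.64% of all genes listed there. Of 7 receptor genes, 2 (28.6%) were flagged over all cells. They were Cr2, known from B cells and follicular dendritic cells, and Vsig4, the complement receptor of the immunoglobulin family known from Kupffer cells. Itgam and Itgb2, which together encode complement receptor 3, were listed for neutrophils without a flag. These groups are small, and their genes were chosen with earlier results of these data known. Their shares are a description and no support for an excess.

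**Figure D2:**
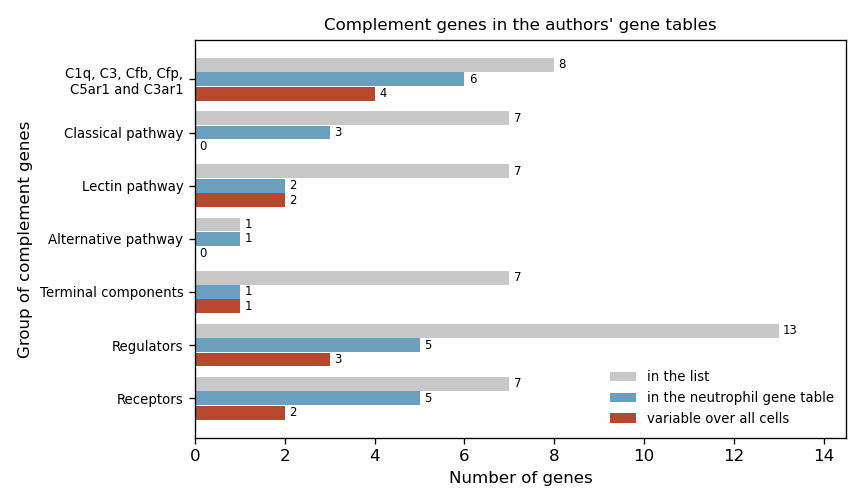
Number of complement genes (horizontal axis) in each group (vertical axis): genes in the list (grey), genes also in the neutrophil gene table (blue) and genes flagged as variable over all cells (red). Of the 8 genes described here 4 are flagged, beside 3.51% of all genes. The 8 genes were chosen with earlier results of these data known. At a share of 3.51%, 0 flags in a small group such as the classical pathway are not a result.

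Of the 8 genes and the 42 further complement genes, 23 were listed for neutrophils. Among them 1 was in the authors' deposited table of neutrophil markers, beside 0.835% of all genes listed for neutrophils. This gene was Fcnb, which encodes ficolin B, a recognition molecule of the lectin pathway. It ranked first in the Early-Stage 2 cluster, with a log2 fold change of 2.33 against all other neutrophils and a marker score of 2.06, in the authors' deposited table. It was detected in 97.9% of the cells of that cluster, per the authors' deposited table. Fcnb was not flagged as variable within neutrophils. Of the 180 marker genes 74 (41.1%) carried that flag, beside 4.64% of all genes listed for neutrophils, and 106 did not. A missing flag alone does not show that a gene is even across the neutrophil clusters.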

How the data were processed

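Cells were captured on a BD Rhapsody cartridge, and the authors ran the Rhapsody pipeline and corrected the counts for ambient RNA, per the file headers. The deposited cell tables give UMI counts per cell, used here only for the depth of each library. Cell barcode numbers shared by both libraries came to 609, beside 21511 cells in shZdhhc17 and 22860 in shSCR. Why these numbers were shared was not tested. The gene tables hold TRUE or FALSE flags per gene, with symbols of GRCm38 (mm10), per the file headers. In the authors' deposited marker table, log2 fold changes and specificity and marker scores compare a neutrophil cluster with all other neutrophils. The deposited fraction is the share of a cluster's own cells with the gene, printed as percent. The submitters' processing notes name Seurat 4.1.0.

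Genes were matched by symbol and placed with GENCODE M21 (GRCm38). Counts were made with pandas 2.3.3. All 8 genes and a list of 42 other complement genes are named by rule, the list as counts and where flagged or listed as markers; further names (C1ra to C4b, C7, Cfd, C5ar2, Itgam, Itgb2, Gm20547, Psap and Hspa8) were added after the entries were seen. Members and lists were chosen with earlier results of these data known. No test was made. Each group is 1 library, which allows no test between the groups, and the counts of flags are given as a description.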

Additional observations from a re-analysis of the deposited data

How the results depend on the processing

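The gene table used is the only choice that could be varied. With the neutrophil gene table in place of that of all cells, the number of the 8 genes listed was 6 in place of 8, and the number flagged as variable was 0 in place of 4. The flags of each table were set by the authors on different cells, so these counts describe different sets of cells. The sets also differ in depth, with 54922339 UMIs in 10922 neutrophils beside 387369670 UMIs in all 44371 cells. Planned results on levels by cell type, neutrophil cluster and library, and their alternatives, were not run because no value per gene and cell was used here. Planned shares of cell types and neutrophil clusters were not run either. Without levels of these genes by cell, such shares do not show the sources of complement RNA. No paired analysis was possible because each group is 1 library and the result comes from no test. Neutrophils had a median of 1418 UMIs per cell in shZdhhc17 and 2464 in shSCR, and the part of depth in the entries of the 8 genes was not tested.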
